A study of Mus musculus with 6 samples.

Results

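The genes described here are 26 genes of cholesterol synthesis and of its control by SREBP2, taken by name from the deposited table of read counts, which lists 20914 genes. All 26 were present, and all 26 were among the 13725 genes that passed the filter on low counts. They were ordered by pathway step into 8 genes of the mevalonate steps, 3 of the squalene steps, 8 of the late sterol steps, and 7 regulators and sterol handling genes. The members were listed with earlier results of these data known, so their common direction is described here and is not independent evidence.

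RNA was taken from mouse liver for 6 sequencing libraries, 3 from the PBS group and 3 from the DOX group. The names of both groups also carry the terms S10D, BDL, CKI and Alb-Cre. Every library carries the genotype BucheKI/KI-Hep and the label of BDL treatment, so there was no library without the knock-in genotype and none without BDL. The Alb promoter, which is active in hepatocytes, drives Cre in both groups, and the deposited design text speaks of Buche overexpression in hepatocytes and a BDL model. BDL is the usual short form of bile duct ligation, which the labels do not spell out. The labels used here do not explain DOX, S10D or CKI, give no age, and do not say whether each library is a separate mouse. The p-values therefore refer to the spread among 6 libraries, part of which may be technical.

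Hepatocytes make cholesterol from acetyl-CoA. Acetyl units are joined and reduced to mevalonate, mevalonate is converted to isoprenoid units that are condensed to squalene, and squalene is cyclised to lanosterol, which the late sterol enzymes turn into cholesterol. SREBP2, encoded by Srebf2, is a membrane-bound transcription factor that activates most of these genes. When sterols are scarce, the escort protein Scap carries it from the endoplasmic reticulum to the Golgi for cleavage, and when sterols are plentiful the Insig proteins hold the complex back, so the pathway is known for its coordinated feedback regulation.

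Promoter sequence was examined because these genes are known to share SREBP2 control. RefSeq promoter windows of 300 bases (build GRCm38.p6, 250 bases before to 50 after the annotated start) were matched for 21 of the 26 genes, in 27 windows. Fdps, Fdft1, Sqle, Stard4 and Npc1 had no entry. The core of the sterol regulatory element was searched as CACNCCAC on both strands. It lay in 3 of 27 windows (11.1%), those of Acat2, Hmgcs1 and Insig1, against 6.24% of all 32851 windows and 6.51% of those of tested genes. With 3 windows this share is coarse, and its difference from the other shares was not tested. The NF-Y motif CCAAT lay in 19 of 27 (70.4%), against 37.4% of all windows and 37.1% of those of tested genes. The Sp1 motif GGGCGG lay in 22 of 27 (81.5%), against 35.7% and 59.0%. No matches of different motifs overlapped in these windows. A match is a run of letters and not a measured binding site.

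Stretches before the start are shown for the 3 genes with the sterol element core and for Pmvk and Nsdhl, whose differences between the groups are described below. Each runs 5′ to 3′ on the gene's strand, with the sterol element core and CCAAT in capitals (matches on the opposite strand stand as their reverse complements). Hmgcs1 is shown at chr13:119690151-119690350 (plus strand), Acat2 at chr17:12960751-12960925 (minus), Pmvk at chr3:89454391-89454540 (plus), Nsdhl at chrX:72918391-72918520 (plus) and Insig1 at chr5:28071382-28071411 (plus).
Hmgcs1: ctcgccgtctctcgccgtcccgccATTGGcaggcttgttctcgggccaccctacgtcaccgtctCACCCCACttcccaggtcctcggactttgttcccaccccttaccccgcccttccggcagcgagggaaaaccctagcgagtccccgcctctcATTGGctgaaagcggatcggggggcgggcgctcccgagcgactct
Acat2: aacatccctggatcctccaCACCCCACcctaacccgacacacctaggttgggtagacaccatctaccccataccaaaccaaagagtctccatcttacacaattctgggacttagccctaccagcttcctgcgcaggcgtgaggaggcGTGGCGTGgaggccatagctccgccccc
Pmvk: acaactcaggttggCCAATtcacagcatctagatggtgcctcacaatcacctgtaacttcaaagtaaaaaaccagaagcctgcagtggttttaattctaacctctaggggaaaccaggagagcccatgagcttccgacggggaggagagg
Nsdhl: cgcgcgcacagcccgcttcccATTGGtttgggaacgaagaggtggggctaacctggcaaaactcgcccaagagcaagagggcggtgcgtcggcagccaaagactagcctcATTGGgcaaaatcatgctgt
Insig1: gggcgcggtacgtgtagtgtcGTGGCGTGt
Counted from the RefSeq start, the sterol element core began 136 bases upstream in Hmgcs1, between CCAAT matches 176 and 45 bases before it. Acat2 held 2 cores, 181 and 53 bases before the start, and no CCAAT. In Insig1 the core lay 9 bases before the RefSeq start. The GENCODE start of Insig1, at 28071363, lies upstream of the whole stretch shown, so by that annotation the core is inside the gene. Pmvk and Nsdhl had CCAAT matches without the core. A second RefSeq window of Pmvk, at chr3:89459321-89459620, held no match to any of the 3 motifs.

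Total counts per library ranged from 32826493 to 41102844, and members had between 339 and 41338 counts in a library. Levels are given as CPM, the read count relative to the library total after TMM scaling, and members stood between 9.26 and 1116 CPM. Bche, the gene of butyrylcholinesterase, was read first as a check of the labels. It stood at 193, 245 and 194 CPM in the PBS libraries and at 969, 448 and 595 CPM in the DOX libraries, with no overlap. The DOX libraries were thus the ones with more Bche, although its adjusted p was 0.106 (edgeR quasi-likelihood test with Benjamini-Hochberg adjustment, used for every adjusted p below unless another tool is named). It was 3.64e-08 with DESeq2. Alb, the albumin gene, took 4.87% to 5.81% of counts in PBS and 10.1%, 6.09% and 10.2% in DOX, so this liver transcript was abundant in every library and its share did not overlap between the groups.

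No member passed the adjusted threshold of 0.05 in either direction, where 0.0219% of all tested genes passed as higher in DOX. The smallest adjusted p was 0.105, and 15 of 26 members had an unadjusted p under 0.05 in the direction of DOX, against 5.03% of all tested genes and 0 members in the other direction. In 16 of 26 members all 3 DOX libraries lay above all 3 PBS libraries, against 7.84% of tested genes, and in 1 they lay below, against 9.02%. The log2 fold change of DOX over PBS was positive in 25 of 26, with a median of 0.44, where the median of all tested genes was -0.015 and 47.0% were positive. When libraries were scaled by size only, the median of all tested genes was -0.149 and 25.1% were positive, and 24 members were positive with a median of 0.31. Of all tested genes, 690 had an unadjusted p under 0.05 as higher and 669 as lower with TMM, against 250 and 1704 with size-only scaling, where Ggps1 was 1 of the lower genes. By step, the medians were 0.59 for the mevalonate steps, 0.51 for the squalene steps, 0.56 for the late sterol steps and 0.22 for the regulators and sterol handling genes. That last median was 0.13 without PBS replicate 1, 0.14 without DOX replicate 3 and 0.090 with size-only scaling. With DESeq2, 7 members passed (0.947% of genes tested there passed as higher). Without the low-count filter 5 passed with edgeR (0.215%), and with limma-voom 0 passed.

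**Figure D1:**
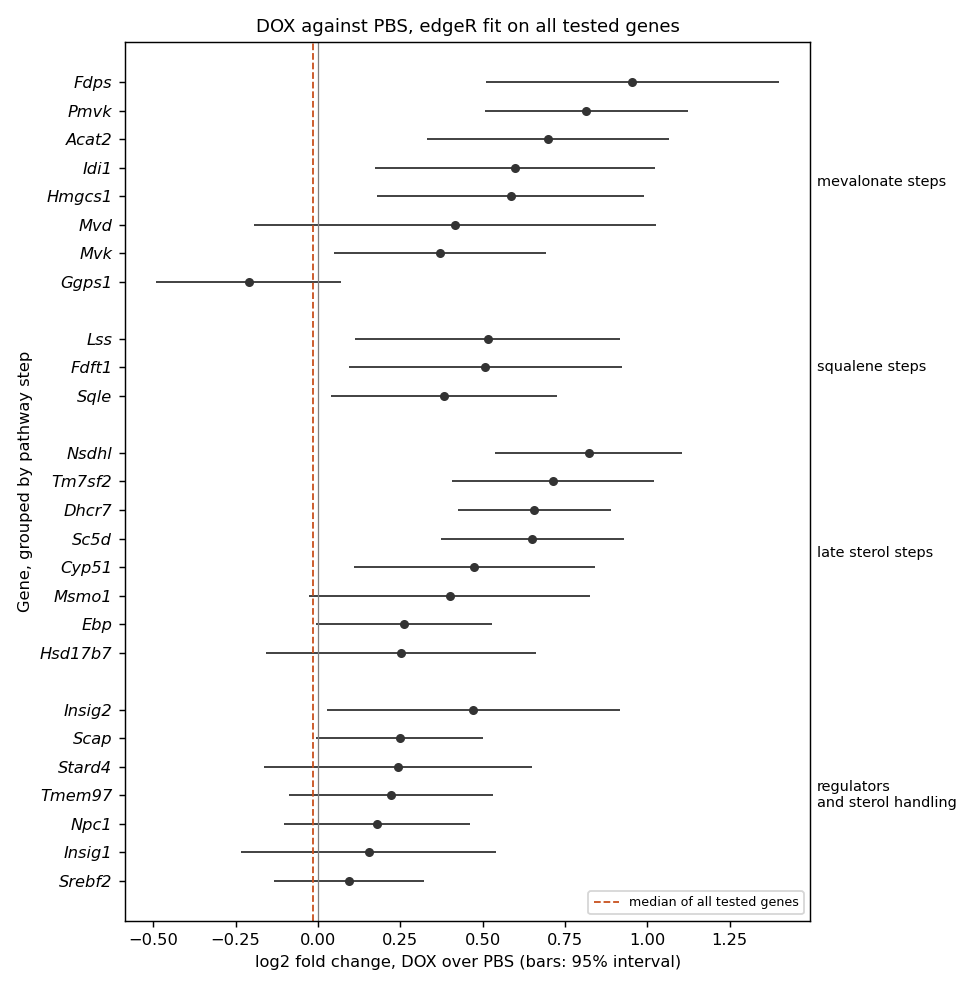
Log2 fold change of DOX over PBS for each of the 26 genes, grouped by pathway step, with 95% intervals from the edgeR fit; the dashed line is the median of all tested genes. Enzymes of the 3 synthesis steps other than Ggps1 lie between 0.25 and 0.95, and Srebf2 and Insig1 lie nearest to 0 (0.10 and 0.15).

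The mevalonate steps held the largest difference among the members, that of Fdps, farnesyl diphosphate synthase, which builds the last intermediate shared by sterols and other isoprenoids. Fdps (chromosome 3, 89093588 to 89101959) stood at 237, 291 and 345 CPM in PBS and at 503, 482 and 707 CPM in DOX. Every DOX library lay well above every PBS library. The log2 fold change was 0.95 (SE 0.19, adjusted p = 0.216). Of the 50-base stretches of its transcript, 86.4% also occur in transcripts annotated to other genes, most of them Gm43738, whose exons overlap it, so how the counting assigned these reads bears on its level.

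Pmvk, phosphomevalonate kinase (chromosome 3, 89454541 to 89469013), stood at 56.8, 57.9 and 67.3 CPM in PBS and at 91.6, 103 and 126 CPM in DOX. The groups were separate, and DOX replicate 3 was highest. Its log2 fold change was 0.81 (SE 0.13, 95% interval 0.51 to 1.12, adjusted p = 0.11). With the replicate number as a block Pmvk was the 1 member that passed (edgeR adjusted p = 0.047), where 0.124% of tested genes passed as higher. It also passed with DESeq2 (adjusted p = 7.5e-05) and without the low-count filter (edgeR adjusted p = 0.013). Over all alternatives its adjusted p ran from 7.5e-05 to 0.614.

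Acat2, the cytosolic acetyl-CoA acetyltransferase that makes acetoacetyl-CoA (chromosome 17, 12942890 to 12960747), stood at 98.7, 90.2 and 111 CPM in PBS and at 135, 149.9 and 201 CPM in DOX. The groups did not overlap, and the log2 fold change was 0.70 (SE 0.16, adjusted p = 0.259). It shares 45.9% of its 50-base stretches with the paralog Acat3, whose own log2 fold change was 0.18 (SE 0.12), so reads may have been split between the pair. Mvd, mevalonate diphosphate decarboxylase, had the largest p of the positive mevalonate enzymes. It stood at 37.1, 71.4 and 81.3 CPM in PBS and at 71.2, 80.4 and 101 CPM in DOX. Here 2 of the PBS libraries lay inside the DOX range and PBS replicate 1 lay far below the rest. The log2 fold change was 0.42 (SE 0.27, adjusted p = 0.628).

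The other mevalonate enzymes were Hmgcs1 (HMG-CoA synthase), Idi1 (isopentenyl diphosphate isomerase) and Mvk (mevalonate kinase), with log2 fold changes of 0.58, 0.60 and 0.37 and no overlap of the groups. Hmgcs1 was among the most abundant members per gene length, with PBS libraries at 167 ± 34.5 FPKM and DOX libraries at 228 ± 14.5 FPKM (SD, n = 3 each). Idi1 was barely separate, with 197 CPM in the highest PBS library and 199 in the lowest DOX library. In FPKM it overlapped, with PBS replicate 3 at 73.3 and DOX replicate 1 at 66.8. Of the 50-base stretches of Idi1, 21.3% also occur in transcripts of other genes. Such shares were 20.8% in Tmem97, 10.85% in Fdft1 and 6.79% in Ggps1. Apart from these and the shares of Fdps and Acat2, none exceeded 2.5%. Ggps1, geranylgeranyl diphosphate synthase, makes the precursor of protein prenylation and leads away from sterols. It was the 1 member with a negative value, at 11.2, 12.5 and 10.4 CPM in PBS and 9.26, 10.01 and 10.2 CPM in DOX. Its DOX libraries all lay below its PBS libraries by a narrow margin (log2 fold change -0.21, SE 0.12, adjusted p = 0.595), and its exons overlap those of Arid4b on the other strand.

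**Figure D2:**
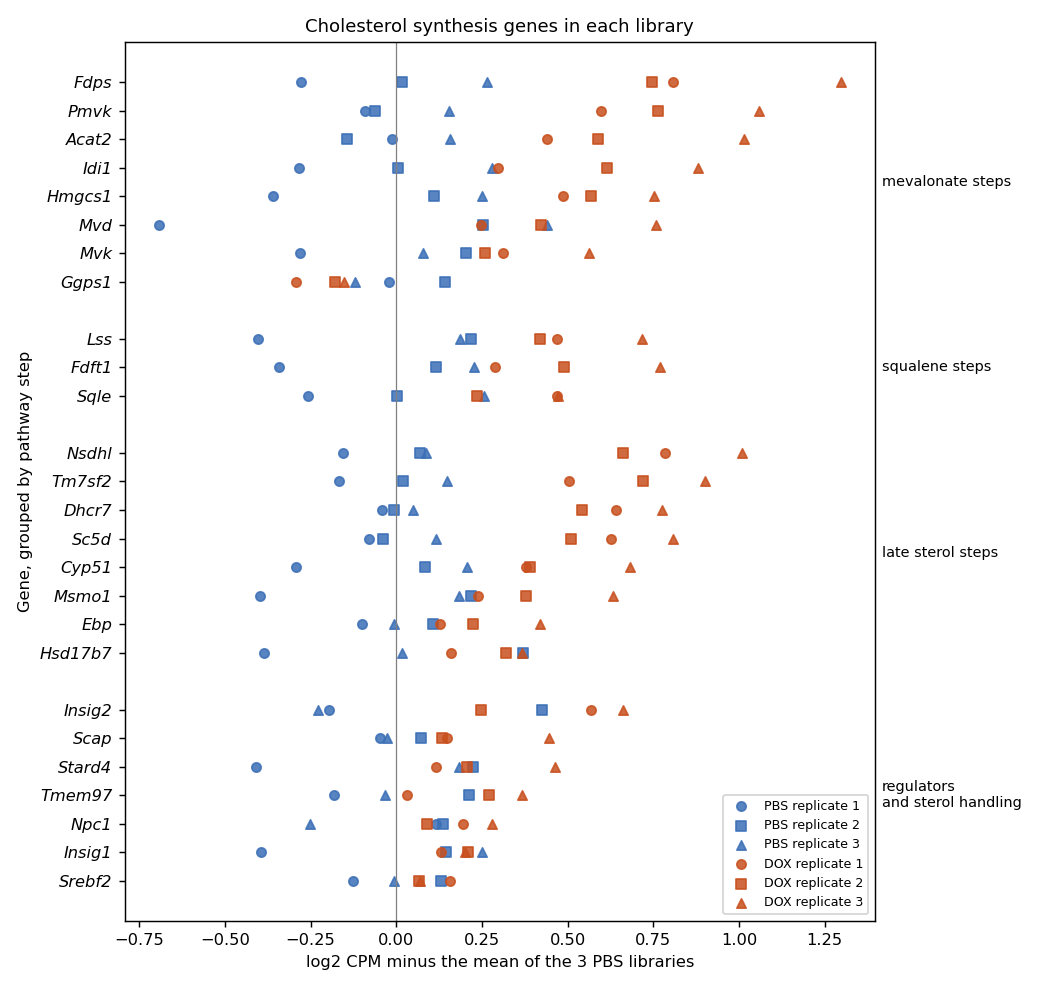
Log2 CPM of each gene in each library, minus the mean of its 3 PBS libraries (blue PBS, orange DOX; circles, squares and triangles are replicates 1, 2 and 3). PBS replicate 1 is the lowest library in 22 of 26 genes, and DOX replicate 3 the highest in 22.

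The 3 squalene step enzymes gave closely similar values, with unadjusted p of 0.018 to 0.033. Fdft1, squalene synthase, stood at 185, 254 and 275 CPM in PBS and at 286, 329 and 400.0 CPM in DOX. Sqle, squalene epoxidase, stood at 193, 231 and 276 CPM in PBS and at 320.1, 272 and 321 CPM in DOX. Lss, lanosterol synthase, stood at 109, 168 and 164 CPM in PBS and at 199.9, 193 and 238 CPM in DOX. Groups were separate in Fdft1 and Lss, while in Sqle the highest PBS library exceeded DOX replicate 2. In FPKM, Fdft1 overlapped as well, with PBS replicate 3 at 28.2 and DOX replicate 1 at 26.4. The log2 fold changes were 0.51 (SE 0.18), 0.38 (SE 0.15) and 0.52 (SE 0.18), and their adjusted p were 0.442, 0.477 and 0.428. The exons of Fdft1 overlap those of Ctsb on the opposite strand, and the sources used here do not say whether counting used strand.

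The late sterol steps had the smallest adjusted p of the 26 genes, shared by Nsdhl and Dhcr7. Nsdhl, a sterol dehydrogenase that takes part in removing the methyl groups of lanosterol (chromosome X, 72918557 to 72958514), stood at 91.2, 107 and 108 CPM in PBS and at 175, 161 and 204 CPM in DOX. The gap between the groups, from 108 to 161 CPM, was wider than the range within PBS. Its log2 fold change was 0.82 (SE 0.12), a 1.77-fold difference with a 95% interval of 1.45 to 2.15-fold (adjusted p = 0.105). Nsdhl passed with DESeq2 (adjusted p = 3.04e-06) and without the low-count filter (edgeR adjusted p = 0.012). Over all alternatives its adjusted p ran from 3.04e-06 to 0.614.

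Dhcr7 encodes the reductase of the last step to cholesterol (chromosome 7, 143823145 to 143848410). Its PBS libraries stood at 125, 128 and 133 CPM, and its DOX libraries at 201, 188 and 221 CPM. The PBS libraries lay close together, and the DOX libraries all lay above them. The log2 fold change was 0.66 (SE 0.10, adjusted p = 0.105). Sc5d, sterol C5-desaturase, acts just before Dhcr7 and stood at 216, 222 and 248 CPM in PBS and 352, 325 and 399.9 CPM in DOX, again without overlap (log2 fold change 0.65, SE 0.12, adjusted p = 0.181).

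Hsd17b7, the ketosteroid reductase of the same demethylation complex as Nsdhl, had the largest p of the late enzymes. Its PBS libraries stood at 98.0, 165 and 129 CPM and its DOX libraries at 143, 159.8 and 165 CPM. The groups overlapped, with PBS replicate 2 level with the highest DOX library, and the log2 fold change was 0.25 (SE 0.18, adjusted p = 0.67). It was 0.081 without PBS replicate 1 and 0.46 without PBS replicate 2. The remaining late enzymes were Tm7sf2, a sterol C14-reductase, Cyp51, the lanosterol demethylase, Msmo1, the methylsterol monooxygenase, and Ebp, the sterol isomerase. Their log2 fold changes were 0.71, 0.48, 0.40 and 0.26, each without overlap of the groups, and their adjusted p ranged from 0.183 to 0.518. In Msmo1 the groups were only just apart, at 408 CPM in the highest PBS and 414 CPM in the lowest DOX library. In Ebp these stood at 206 and 209 CPM. In FPKM both genes overlapped, with PBS replicate 3 at 182 and DOX replicate 1 at 171 for Msmo1. For Ebp, PBS replicate 2 stood at 119 FPKM and DOX replicate 1 at 115. Tm7sf2 and Cyp51 share exon positions with Vps51 and Akap9.

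Of the regulators, Srebf2 itself was nearly level between the groups. It stood at 101, 120.5 and 109.5 CPM in PBS and at 123, 115 and 115 CPM in DOX. The DOX libraries lay within or just above the PBS range, and the log2 fold change of 0.10 (SE 0.10, 95% interval -0.13 to 0.32, adjusted p = 0.779) turned negative when libraries were scaled by size only (-0.035) or on the FPKM table (-0.034 with a pseudocount of 1). The interval leaves room for a difference of up to 1.25-fold. Its mRNA level says nothing of how much of the protein is cleaved, which was not measured.

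Insig1, an anchor of the Scap complex that is itself a known SREBP target, stood at 271, 394 and 424 CPM in PBS and at 390.3, 412 and 409.7 CPM in DOX. All 3 DOX libraries lay inside the PBS range. The log2 fold change was 0.15 (SE 0.17, adjusted p = 0.789), and it was -0.018 without PBS replicate 1. Insig2, the paralog with the same anchoring role, stood at 99.7, 154 and 97.4 CPM in PBS and at 169, 136 and 181 CPM in DOX. Only PBS replicate 2 overlapped the DOX libraries, and the log2 fold change was 0.47 (SE 0.19, adjusted p = 0.489). Per gene length, Insig1 was the more abundant of the pair in both groups, at 143 ± 31.3 FPKM against 17.3 ± 4.07 FPKM in the PBS libraries and at 146 ± 9.18 against 21.96 ± 2.20 in DOX (SD, n = 3 each).

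Scap, the escort of SREBP2, stood at 87.4, 94.99 and 88.6 CPM in PBS and at 99.96, 98.9 and 123 CPM in DOX. The groups were separate by a narrow margin, with DOX replicate 3 above the others (log2 fold change 0.25, SE 0.11, adjusted p = 0.504). Tmem97, a sterol-binding membrane protein that interacts with NPC1, stood at 109, 144 and 121 CPM in PBS and 127, 149 and 159.8 CPM in DOX, with overlap (log2 fold change 0.22, adjusted p = 0.615). Stard4, a cytosolic sterol carrier, and Npc1, which exports cholesterol from lysosomes, had log2 fold changes of 0.24 and 0.18 with overlapping groups (adjusted p = 0.681 and 0.658). Among these 7 genes, Scap alone had separate groups and Insig2 alone an unadjusted p under 0.05 (0.04). Whether the difference of the enzymes exceeded that of the regulators was not tested.

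**Figure D3:**
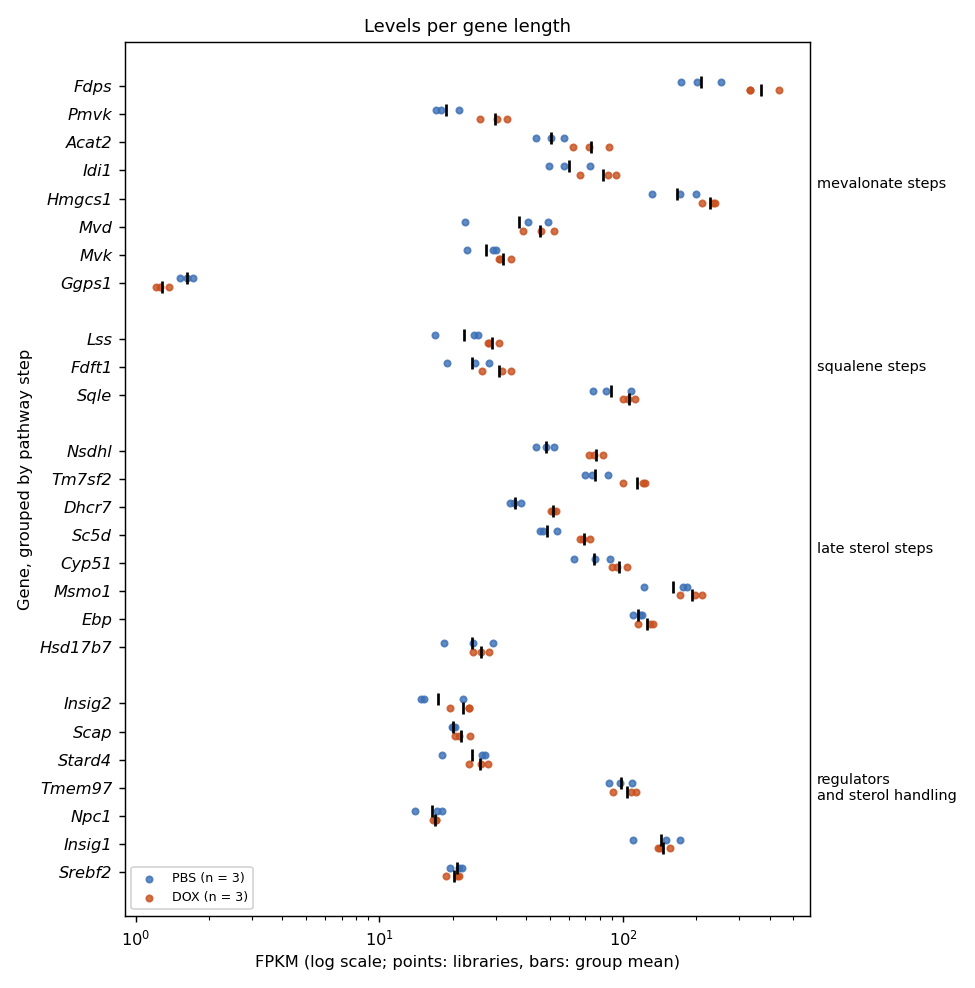
FPKM of each gene on a log axis in the 3 PBS (blue) and 3 DOX (orange) libraries, with bars at the group means, so that genes can be compared per length. Fdps, Hmgcs1 and Msmo1 have the highest PBS means (209, 167 and 160.2 FPKM), and Ggps1 the lowest (1.62).

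Per gene length, the enzymes spanned a wide range of levels. Mean FPKM in PBS ran from 1.62 ± 0.10 for Ggps1 and 18.7 ± 2.14 for Pmvk to 160.2 ± 33.3 for Msmo1 and 209 ± 40.2 for Fdps (SD, n = 3 each). Neighbours in this order could lie within each other's spread, as Hmgcs1 (167 ± 34.5) and Msmo1 did in PBS. Summed over each step, mean FPKM went from 572 in PBS to 860.0 in DOX for the mevalonate steps, from 135 to 165 for the squalene steps and from 585 to 753 for the late sterol steps. The regulators and sterol handling genes went from 339.6 to 356. FPKM are scaled by library total, and on that scale the median log2 fold change of all genes lay lower than with TMM. The sums also give abundant genes more weight, which the step medians do not. The changes in these sums are therefore not the same measure as the fold changes given above.

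Single libraries weighed on many of these values. Within PBS, replicate 1 was the lowest library in 22 of 26 members, against 30.3% of all tested genes. Within DOX, replicate 3 was the highest in 24 of 26, against 34.8%. The median coefficient of variation of the members was 17.0% in PBS and 12.0% in DOX, against 11.9% and 12.9% over all tested genes. Relative to the PBS mean, the median of the members in log2 CPM was -0.23, 0.11 and 0.15 in PBS replicates 1, 2 and 3 and 0.31, 0.38 and 0.67 in DOX replicates 1, 2 and 3. Each DOX library thus stood above each PBS library in this median, with the 2 extreme libraries farthest apart.

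Without PBS replicate 1 the median log2 fold change was 0.30, with 10 members at an unadjusted p under 0.05 (3.59% of tested genes). Without DOX replicate 3 it was 0.36, with 9 members (3.84%). Without both, an alternative chosen after seeing the data, it was 0.22, with 22 of 26 positive and 7 members at that p (3.04%). Nsdhl, Pmvk, Fdps, Dhcr7, Tm7sf2, Sc5d and Acat2 then still had log2 fold changes of 0.50 to 0.65. Mvd, Insig1 and Stard4 stood at -0.0085, -0.025 and -0.039, and Msmo1 and Hsd17b7 at 0.11 and 0.040. The step medians were then 0.33 for the mevalonate, 0.23 for the squalene and 0.38 for the late sterol steps and 0.063 for the regulators and sterol handling genes. Leaving out a single library moved the log2 fold change by over 1.5 times, or turned its sign, in 13 of 26 members. PBS replicate 1 did so in 9 of them (Mvk, Mvd, Lss, Msmo1, Hsd17b7, Srebf2, Insig1, Stard4 and Tmem97). Of the others, Ggps1 went to -0.14 and Insig2 to 0.72 without PBS replicate 2, Npc1 to 0.065 without PBS replicate 3, and Scap to 0.14 without DOX replicate 3. When libraries were scaled by size only, 12 members had separate groups with DOX above, against 2.56% of tested genes. Idi1, Fdft1, Msmo1 and Ebp were separate with TMM but not in FPKM, which are also scaled by library total.

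**Figure D4:**
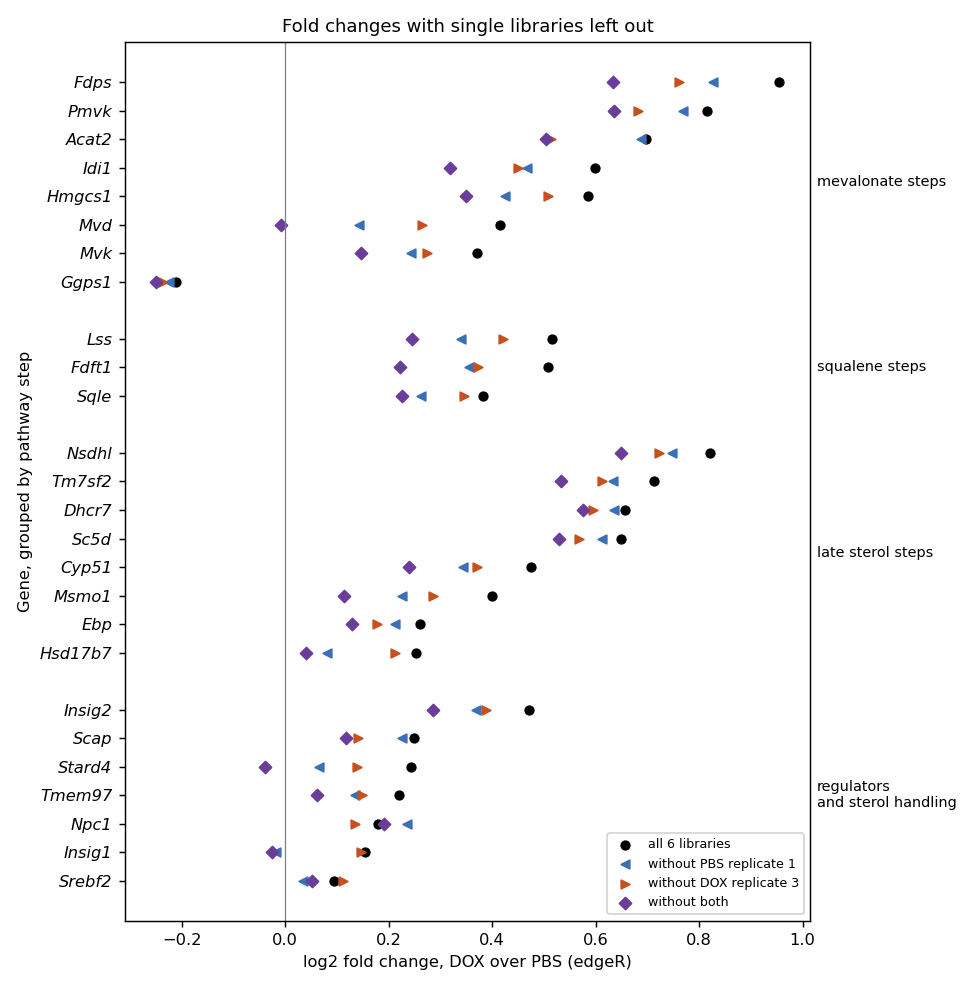
Log2 fold change of each gene with all 6 libraries (black), without PBS replicate 1 (blue), without DOX replicate 3 (orange) and without both (purple). Nsdhl, Pmvk and Fdps stay between 0.63 and 0.95 in all 4 fits, while Mvd, Insig1 and Stard4 reach values at or below 0.

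Libraries also differed in markers of the cell types that liver RNA can hold. In bulk tissue, fewer cells of a type and less RNA per cell cannot be told apart. Cholangiocyte markers were negative in 10 of 10, with summed levels of 285 to 404 CPM in PBS and 139.9 to 272 CPM in DOX, lowest in DOX replicate 3. Spp1 was the largest part of these sums, at 199.7, 212 and 171 CPM in PBS and 162, 138 and 70.7 CPM in DOX. In 4 of the 10 markers, Spp1 among them, all DOX libraries lay below all PBS libraries, against 9.02% of tested genes. In the others the groups overlapped. Endothelial markers were positive in 10 of 10, with sums of 172, 57.5 and 171 CPM in PBS and 264, 141 and 246 CPM in DOX. PBS replicate 2 was the low library there, and the other PBS libraries lay above DOX replicate 2. Stellate cell markers were positive in 9 of 10 (224 to 417 CPM in PBS and 209 to 468 in DOX). Hepatocyte markers were positive in 5 of 9, with a median log2 fold change of 0.021, and summed to 76716 to 90939 CPM in PBS and 92391 to 147694 CPM in DOX, with Alb as the largest part of the sum. Macrophage markers were positive in 5 of 10 (940.4 to 1085 and 904 to 1203 CPM), and neutrophil markers negative in 7 of 7 tested (14.98 to 31.3 and 13.3 to 20.1 CPM). Of these 7, Cxcr2 was level, at a log2 fold change of -0.00076. All 7 were low, the highest group mean being that of S100a9 in PBS at 7.74 CPM. Of these lists, 0 genes passed the adjusted threshold with edgeR or limma-voom, and DESeq2 passed Alb as higher and the cholangiocyte marker Tspan8 as lower. At an unadjusted p under 0.05 (edgeR) stood 4 cholangiocyte and 2 neutrophil markers as lower and 2 endothelial and 2 hepatocyte markers as higher. Of all 13725 tested genes, 690 (5.03%) stood at that p as higher and 669 as lower, and 47.0% had a positive log2 fold change. With DESeq2, 130 of all genes passed as higher and 50 as lower. Steroidogenic markers, which would mark tissue that also makes sterols, summed to at most 1.13 CPM in any library, with Cyp11a1 and Hsd3b1 at 0 to 4 counts. The part of Alb share and cell makeup in the values of the cholesterol genes was not tested.

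Other genes of the pathway were read from lists that, like the members, were chosen with earlier results of these data known. Of them, 0 passed the adjusted threshold with limma-voom or with the main edgeR fit, which used the low-count filter and no replicate block. On the list of 8 further synthesis enzymes and SREBP targets, 8 were positive, with a median log2 fold change of 0.38. An unadjusted p under 0.05 (edgeR) was found for 4 of them, against 5.03% of all tested genes as higher. With DESeq2 2 passed, Rdh11 and Acss2, where 0.947% of genes passed as higher. Rdh11, a retinol dehydrogenase, stood at 65.0, 70.7 and 70.8 CPM in PBS and at 119.9, 112 and 163 CPM in DOX, clear of each other (log2 fold change 0.94, SE 0.15, adjusted p = 0.105). It was the 1 gene of its list that passed with edgeR without the low-count filter, where 0.215% of genes passed as higher. Acss2, which makes cytosolic acetyl-CoA from acetate, stood at 179, 154 and 173 CPM in PBS and at 226, 285 and 417 CPM in DOX, also clear (log2 fold change 0.88, SE 0.21, adjusted p = 0.267).

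Genes of SREBP processing and of sterol-driven protein turnover were centred near 0, at a median of 0.036 on the log2 scale, 7 of 12 being above 0. None had an unadjusted p under 0.05 with edgeR, and 0 passed with DESeq2. Those of smallest p were Pgrmc1, a heme-binding membrane protein (log2 fold change 0.32, adjusted p = 0.538), and Erlin2, a lipid raft protein of the endoplasmic reticulum (-0.17, adjusted p = 0.59). The non-sterol isoprenoid branch, to which Ggps1 leads in part, showed a median of 0.025, 6 of 10 being positive, and 0 passed with DESeq2. Rabggta, a subunit of the enzyme that prenylates Rab proteins, had 0.22 (unadjusted p = 0.039), and Dhdds, of dolichol synthesis, 0.21. Sterol transport and esterification genes showed a median of 0.075, 7 of 11 being positive. Of them, 2 had an unadjusted p under 0.05 (edgeR), both as higher, against 5.03% of all tested genes. Among them Gramd1c, a sterol transfer protein, had 0.34 and Lipa, the lysosomal acid lipase, 0.40, both without overlap of the groups (adjusted p = 0.355 and 0.368). Lipa was the 1 gene of this list that passed with DESeq2, where 0.947% of genes passed as higher.

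Fatty acid synthesis genes, many of them targets of the related factor SREBP1, were read beside these in the same libraries. All 18 were positive, with a median log2 fold change of 0.77, and 13 had separate groups, where 7.84% of tested genes did. With DESeq2 12 passed (0.947% of genes). With edgeR, 3 passed with the replicate block (0.124%) and 5 without the low-count filter (0.215%), Pklr and Fads2 among the 5. Pklr, the liver pyruvate kinase, stood at 59.9, 43.2 and 74.98 CPM in PBS and at 149, 149 and 156 CPM in DOX, a difference of 1.35 ± 0.18 on the log2 scale (SE, with adjusted p = 0.105). Fads2, a fatty acid desaturase, stood at 232, 189 and 201 CPM in PBS and at 405, 359 and 419 CPM in DOX, a difference of 0.93 ± 0.12 on the log2 scale (SE, with adjusted p = 0.105). Both genes had every DOX library far above every PBS library. Srebf1, which encodes SREBP1 and was named after its values were seen, stood at 189.6, 118 and 160.0 CPM in PBS and at 231, 229 and 242 CPM in DOX, with no overlap (log2 fold change 0.58, SE 0.16, adjusted p = 0.369). The corresponding value of Srebf2 was 0.10 (SE 0.10), and the difference between the 2 genes was not tested.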

How the data were processed

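Total RNA from mouse liver was prepared with a column kit and a SMARTER mRNA-Seq library kit, per the labels' protocols. Per the submitters' processing notes the genome was GRCm38, also written mm10. How reads were aligned and counted, and whether strand was used, is not given in the sources used here. For these 6 libraries the authors deposited a table of raw read counts and 1 of FPKM. In 18913 of 18913 genes with counts in at least 2 libraries, the FPKM could be rebuilt from the counts and library totals with a single length per gene (relative tolerance 1e-04).

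Counts were fitted with edgeR 4.0.16 (filterByExpr, TMM, quasi-likelihood test) in R 4.3.3, DOX against PBS without a block, with Benjamini-Hochberg adjustment over all tested genes. The procedure was tested on simulated data. Alternatives used DESeq2 1.42.0, limma 3.58.1 (voom, and log2 of FPKM plus 1 or 0.1), other scalings, no filter, a fit without Alb, the replicate block and left-out libraries; leaving out PBS replicate 1 and DOX replicate 3 together, and counting members by unadjusted p, were added after seeing the data. All replicate pairs exceeded counting noise (chi-square over degrees of freedom, 45.0 to 142.8). Coordinates are from GENCODE on GRCm38, promoters from RefSeq.

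Members and lists were chosen with earlier results of these data known. Values in every library are given for Srebf2, Scap, Insig1, Insig2 and, per step, the members of smallest p (up to 3) and of largest p; other lists name the 2 of smallest p. Other members were given in more detail after their values were seen. Of the list entries, 2 (Tf and Cyp11b1) were not matched.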

Additional observations from a re-analysis of the deposited data

How the results depend on the processing

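No member passed over all genes in the edgeR fit, nor under the RLE or size-only scalings, limma-voom, both FPKM settings, without Alb, or without any single library or both extreme libraries. DESeq2 gave 7 members and no low-count filter 5. Over all genes, 4 passed, against 180 with DESeq2, 61 without the filter and 2 with limma-voom. With the replicate block 21 genes and 1 member (Pmvk) passed. Deviations of same-numbered libraries correlated at 0.192, 0.13 and 0.0097, and those of differently numbered libraries at -0.183 to 0.057. The numbers were not taken as a pairing because the labels give them no meaning. Whether libraries of the same number belong together was not tested. Size-only scaling moved the median of all genes from -0.015 to -0.149 and that of the members to 0.31. Leaving out 1 library gave member medians of 0.30 to 0.55, 9 to 18 members at an unadjusted p under 0.05 (3.59% to 5.75% of tested genes), 16 to 20 with separate groups (11.3% to 13.6% of tested genes, against 7.84% with all libraries, since 5 libraries separate more easily), 3 to 4 genes called and 0 members called. Without PBS replicate 1 and DOX replicate 3, the median was 0.22 and 7 members had that p, and Mvd, Insig1 and Stard4 turned negative (-0.0085, -0.025 and -0.039); that fit holds 2 libraries a group. Srebf2 was negative with size-only scaling (-0.035) and on the FPKM table (-0.034 with a pseudocount of 1, -0.035 with 0.1). Leaving out 1 library at a time gave 0.14 to 0.64 for Mvd, -0.018 to 0.28 for Insig1 (negative without PBS replicate 1) and 0.066 to 0.35 for Stard4. The cause of these changes was not tested. How depth limits these values was not tested.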
